A study of Brachypodium distachyon with 45 samples.

Results

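Of the 33852 loci measured in leaves of the grass Brachypodium distachyon, 144 fell in level from day 0 to day 8 in well-watered plants of each of 3 genotypes. A locus was taken when log2((FPKM + 1)/(FPKM + 1)) of the T2 control against the T0 control was -1 or less, a fall of about 2-fold or more, in every genotype. FPKM counts the fragments read from a locus relative to its transcript length and to all fragments mapped, so that levels of different loci can be compared per length. The loci were chosen by their T0 and T2 control values, and the fall itself is therefore a description and not a finding. The limit can only be met by loci at 1 FPKM or more at T0, which held for 15054 loci in all 3 genotypes. The fall was met by 418 loci in ABR4, 1120 in ABR8 and 964 in KOZ1, and 131 loci rose by as much in all 3 genotypes.

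Plants were grown for 32 days after germination with full watering and leaf tissue was taken at the start (T0), after 4 days (T1) and after 8 days (T2). From T0, control plants were watered and drought plants received no water, so that drought at T1 and T2 was set against a control of the same day. The inbred lines had been classed for drought as tolerant (ABR8), intermediate (ABR4) and susceptible (KOZ1). Each of the 15 groups held 3 libraries, from 3 plants, for 45 in all.

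As a grass leaf ages it passes from growth, when cells divide, expand and lay down new wall, through a mature phase of photosynthesis, to senescence, when its nitrogen is moved out. Genes used for growth and for building the cell are known to decline along this path while genes for breakdown and export rise. Loss of water is known to stop growth early and, when severe, to bring senescence forward. Which leaves were taken is not stated, so their age at each time is unknown. Plant age and day of harvest were the same variable here and cannot be told apart. In whole-leaf RNA, fewer cells of a type and less RNA per cell cannot be told apart either.

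The deposited values are 1 per locus and group, which the authors drew from 3 libraries together and gave with lower and upper 95% limits, so no value has an SD of its own and the number of reads behind it is unknown. The standard error of an FPKM value, taken from the upper limit, was 22.3% to 23.2% of the value in the median locus at 1 FPKM or more, with little difference between groups. In 15 samples the treatment field of the labels went against the sample title, and the titles were followed. These were all 12 ABR8 samples at T1 and T2, and 3 of KOZ1 at T0. By the field, ABR8 control and drought would be exchanged at both times. The direction of every ABR8 drought difference against a control would then be reversed, and the rule would have used its drought group at T2. The FPKM values of KOZ1 in T2 drought summed to 479128, against 624700 to 759455 in the other groups. The values of ABR4 and ABR8 also lay closer to each other in T1 drought than at other times. Among 273 loci at least 4-fold apart between these genotypes at T0, the median log2 ratio in the T0 direction was 2.47 at T0, 2.33 in the T1 controls, 0.98 in T1 drought, 1.59 in the T2 controls and 2.06 in T2 drought. Whether each of these groups held only libraries of the genotype in its label cannot be told from pooled values, which bears on every T1 drought value of ABR4 and ABR8. Results that rest on T1 drought are therefore also given for the 76 of 144 loci whose T1 controls differed by less than 1.5-fold between ABR4 and ABR8. Since no marker of leaf cells is annotated in the sources used here, the tissue was not checked against markers.

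The 144 loci covered a wide range of levels, from a mean of 1.74 to 4094 FPKM at T0 with a median of 22.2. They lay on all 5 chromosomes, at 0.819% to 1.18% of the loci that could meet the rule on each. A RefSeq gene of the same assembly (v3.0) took up the same place for 132 loci, of which 125 were protein coding and 4 were long non-coding RNAs. Only 2 of the loci carry a description in the sources used here, and the rest are given by identifier without a role. The median locus spanned 3589 bases, against 4784.5 bases for all loci that could meet the rule. For 12 loci the table joins several identifiers, and 4 loci were shorter than 500 bases.

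A few of the loci neighbour each other. Bradi1g67110 and Bradi1g67120 were given the same span (chromosome 1, 66047796 to 66054575), as were Bradi4g16630 and Bradi4g16635 (chromosome 4, 17504128 to 17508158). Reads of such pairs cannot be told apart with certainty without strand, which is not stated for the counting. Bradi5g25720 and Bradi5g25730 were separated by 1236 bases, Bradi1g42390 and Bradi1g42397 by 2473 bases, and Bradi4g23280 and Bradi4g23290 by 7314 bases.

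At T0 the loci were often higher in ABR4, which held the highest of the 3 T0 values for 74 loci, against 40 for ABR8 and 30 for KOZ1. The highest genotype exceeded the lowest by a median of 1.64-fold, and by at least 2-fold for 48 loci. Together the 144 loci made up 2.06% of the summed FPKM of ABR4 at T0, 1.57% of ABR8 and 1.60% of KOZ1. In the T2 controls their part was 0.485%, 0.431% and 0.454%.

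The most abundant of them was Bradi1g12787, a protein-coding locus at chromosome 1, 9676628 to 9678013. In ABR4 it stood at 5014 FPKM at T0, 2832 in the T1 control, 1806 in T1 drought, 1020.1 in the T2 control and 994 in T2 drought. In ABR8 it stood at 3652 FPKM at T0, 1772 in the T1 control, 1717 in T1 drought, 1022 in the T2 control and 889 in T2 drought. In KOZ1 it stood at 3615 FPKM at T0, 2183 in the T1 control, 1699.7 in T1 drought, 1284 in the T2 control and 2036 in T2 drought. The T0 limits of this locus were wide in every genotype (1641 to 8387 FPKM in ABR4), and the KOZ1 value in T2 drought was above both T1 drought and the T2 control without either difference being called.

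The next in abundance was Bradi3g01470, at a far higher level in ABR4 than in the other genotypes. It was at 1858 FPKM in ABR4 at T0, 597 in ABR8 and 894 in KOZ1, and at 791, 90 and 366 in the T2 controls. Its T1 drought value was below the T1 control in ABR4 (681 against 1014) and above it in ABR8 (548 against 262), the pattern noted for loci that differ between these genotypes. The remaining loci among the 15 most abundant had mean T0 levels that fell off to that of Bradi1g41115, at 195, 44.5 and 156 FPKM in ABR4, ABR8 and KOZ1.

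The steepest mean fall was that of Bradi1g72390 (chromosome 1, 70354703 to 70357318). It was at 27.7, 16.7 and 22.3 FPKM at T0 in ABR4, ABR8 and KOZ1, at 1.52, 1.99 and 3.37 in the T1 controls, and at 0.278, 0.553 and 0.43 in the T2 controls. On the log2(FPKM + 1) scale, which understates changes of low loci, these falls were -4.49, -3.51 and -4.02. Bradi2g31800, also among the most abundant, fell by a like amount in each genotype, with log2 changes of -3.92, -4.07 and -3.97. Bradi2g22880 was steeper in the ABR lines (-3.97 and -4.17) than in KOZ1 (-2.11), and its difference between genotypes was not tested.

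Nearest the limit on the inside were Bradi1g05330, Bradi2g58690 and Bradi5g17500, with log2 changes in their weakest genotype of -1.001, -1.02 and -1.03. Just outside were Bradi3g57370, Bradi1g09042 and Bradi2g23740, with -0.993, -0.996 and -0.998. The abundant locus Bradi2g58690 went from 161 to 78.8 FPKM in KOZ1, and Bradi3g57370 from 24.8 to 12.0 FPKM in ABR8.

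Of the 2 described loci, Bradi2g46190 had log2 changes from T0 to the T2 control of -1.12, -2.06 and -2.01 in ABR4, ABR8 and KOZ1. The medians over the 144 were -1.80, -1.54 and -1.58. Bradi2g46190 encodes an auxin response factor, a transcription factor that switches genes on or off in answer to the growth hormone auxin. It was at 6.12 FPKM at T0, 2.4 in the T1 control, 2.62 in T1 drought, 0.763 in the T2 control and 1.54 in T2 drought in KOZ1. Its values in ABR8 were 8.2 FPKM at T0, 4.55 in the T1 control, 3.08 in T1 drought, 1.2 in the T2 control and 2.72 in T2 drought, and in ABR4 3.8 FPKM at T0, 2.17 in the T1 control, 1.85 in T1 drought, 1.21 in the T2 control and 1.05 in T2 drought. The drought value at T2 was above the control in ABR8 and KOZ1 and below it in ABR4, and none of these differences was called.

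Of the 3 auxin response factors that the study lists, Bradi2g46190 was the only member here. Bradi1g51490 was further below T0 in the T2 controls of ABR8 (16.1 to 0.979 FPKM) and KOZ1 (13.0 to 0.743) but was at 1.60 and 1.34 FPKM in ABR4, and Bradi3g49020 went from 0.598 to 3.24, from 0.765 to 9.54 and from 1.03 to 1.45 FPKM in ABR4, ABR8 and KOZ1. The study chose this list on these samples.

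Bradi3g16927 is described as a transaldolase, an enzyme of the pentose phosphate pathway, which supplies reducing power and sugar precursors. In KOZ1 it was at 8.8 FPKM at T0, 2.96 in the T1 control, 4.28 in T1 drought, 1.58 in the T2 control and 4.71 in T2 drought. In ABR8 it was at 25.5 FPKM at T0, 18.3 in the T1 control, 13.4 in T1 drought, 8.45 in the T2 control and 12.4 in T2 drought, and in ABR4 at 37.3 FPKM at T0, 19.2 in the T1 control, 10.6 in T1 drought, 8.32 in the T2 control and 5.36 in T2 drought. It was thus lower in KOZ1 than in the other lines at every control time, and its rise above the T2 control under drought in KOZ1, 1.58 ± 0.62 (SE) on the log2 scale, was not called.

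Of the 103 genes in the study's lists that were at 1 FPKM or more at T0, both described loci and no others met the rule (1.94%, against 0.957% of all loci at that level). None of the 15 peroxidases, of the 3 xyloglucan endotransglucosylases/hydrolases or of the 3 laccases met the rule. In ABR4 the median log2 change of the peroxidases from T0 to the T2 control was 0.18, against -1.38 in ABR8 and -1.06 in KOZ1, and 0, 4 and 6 of them were called lower and 0, 0 and 1 higher. These lists were chosen by the study on these samples.

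To test the fall on values that had not chosen the loci, loci were taken by the rule in a pair of genotypes and followed in the genotype left out. Each difference between groups was tested by a z-test on the log ratio of FPKM, with errors from the authors' limits and Benjamini-Hochberg adjustment over all loci, and counted as called when it reached 2-fold with an adjusted p of 0.05 or less. In KOZ1, 91 of the 186 loci chosen in ABR4 and ABR8 were called lower in the T2 control than at T0 (48.9%, against 1.33% of all loci tested), and 185 were lower. In ABR8, 92 of 196 tested loci chosen in ABR4 and KOZ1 were called lower (46.9%, against 1.54%), and 192 were lower.

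In ABR4 the share was smaller, which was not tested between genotypes. Of 624 tested loci chosen in ABR8 and KOZ1, 94 were called lower in ABR4 (15.1%, against 0.641% of all loci tested), and 357 were lower. In each genotype the calls were all among the 144. The choice nearly fixes this, since the other loci had not reached the limit in that genotype and a call needs a 2-fold change. The 480 tested loci that fell in ABR8 and KOZ1 but did not reach the limit in ABR4 had a median log2 change of 0.03 there, with 267 higher and 213 lower. In ABR8 the corresponding 52 loci had a median of -0.72, and in KOZ1 the 42 loci had -0.78.

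By T1 most of the fall had taken place in the ABR lines. Over the 144 loci ABR4, ABR8 and KOZ1 had median log2 changes from T0 to the T1 control of -1.13, -1.03 and -0.87, and 144, 144 and 140 loci were lower. The share of the T0 to T2 fall reached by T1 had a median of 0.62 in ABR4 (quartiles 0.52 and 0.77), 0.64 in ABR8 (0.49 and 0.75) and 0.51 in KOZ1 (0.38 and 0.68). It was over 0.5 for 119, 102 and 76 loci, and in all 3 genotypes for 53. The T0 values were chosen high, which enters this share, and it was not tested between genotypes.

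In all 3 genotypes 129 of 144 stood lower at each later control, which describes the choice of loci, since the rule set T0 high and the T2 control low. In the loci chosen in the other 2 genotypes, 26 of 186 were called lower at T1 than at T0 in KOZ1 (against 0.854% of all loci), 22 of 196 in ABR8 (against 0.205%) and 27 of 625 in ABR4 (against 0.123%). Bradi3g39950 had nearly completed its fall by T1, at 6.09 FPKM at T0 and 0.0898 in the T1 control of ABR4, 6.46 and 0.424 in ABR8, and 7.34 and 0.889 in KOZ1. Bradi5g11240 was late, at 36.5, 28.4 and 9.02 FPKM in the T0, T1 and T2 controls of KOZ1.

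**Figure D1:**
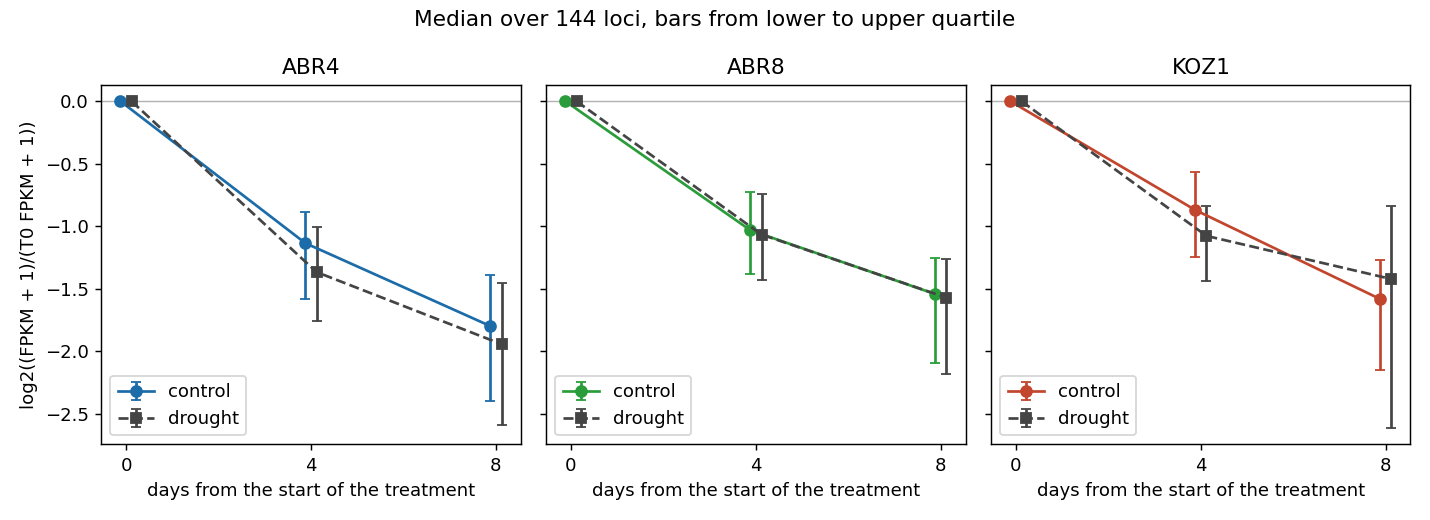
Median level of the 144 loci relative to T0, as log2((FPKM + 1)/(T0 FPKM + 1)), against days from the start of the treatment in each genotype. Points are medians over loci and bars run from the lower to the upper quartile over loci (they are not errors over plants); control and drought share the T0 point. At day 8 the medians of control and drought were -1.80 and -1.94 in ABR4, -1.54 and -1.57 in ABR8, and -1.58 and -1.42 in KOZ1, where the drought quartiles spread widest.

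At T1 most of the loci had lower values in drought than in the control of the same day, and none of the differences was called. These groups were not used by the rule. In ABR4, 101 of 144 loci were lower in drought (70.1%, against 48.1% of all loci tested), with a median log2 change of -0.16 against 0.01. In KOZ1, 104 were lower (72.2%, against 49.9%), with a median of -0.21 against 0.00. In ABR8, with its groups taken by the sample titles, 90 were lower (62.5%, against 48.8%), with a median of -0.08 against 0.00. By the treatment field this direction would be reversed. The direction was not particular to the 144 in ABR4 and KOZ1. It was looked at in loci that met the rule in the other 2 genotypes only. Of these, 385 of 483 tested were lower in ABR4 (79.7%), with 2 called lower, and 33 of 42 in KOZ1 (78.6%), with 4 called lower. In ABR8 27 of 54 were lower (50%) and none was called. None of the 144 was called in any genotype, while 5 in ABR4, 4 in ABR8 and 7 in KOZ1 passed an unadjusted p with 2-fold. Of these, 3, 3 and 6 were lower. Of 26550 loci tested in ABR4, 352 passed it higher and 88 lower. The numbers were 241 and 11 of 27059 in ABR8, and 263 and 291 of 26377 in KOZ1. Over all loci 0.0339%, 0% and 0.303% were called lower and 0.2%, 0.037% and 0.155% higher in ABR4, ABR8 and KOZ1.

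With ABR8 taken by its sample titles, 35 loci were lower in T1 drought than in the control in all 3 genotypes. This was 24.3%, against 8.18% of the loci at 1 FPKM or more at T0, and 3 were higher (2.08%, against 13.5%). The high share lower in each single genotype by itself gives many loci lower in all 3. These counts therefore do not show that the same loci shifted in the 3 genotypes. Among the 76 loci alike in the ABR4 and ABR8 controls, 56, 56 and 57 were lower in ABR4, ABR8 and KOZ1, with medians of -0.16, -0.10 and -0.19. Closest to a call was Bradi4g12250 in KOZ1, which was at 5.02 FPKM in the control and 0.942 in drought (log2 change -2.42 ± 0.67 (SE)). Next was Bradi1g77040, at 38 and 15.5 FPKM (log2 change -1.29 ± 0.36 (SE)). In KOZ1 both had been higher in the T1 control than at T0 (4.43 and 30.6 FPKM). The T1 drought responses of KOZ1 differed from those of ABR8 or ABR4 for no member at the adjusted p (against 0.133% of all loci higher and 0.168% lower, and 0.0887% and 0.0621%), and for 9 and 8 members at an unadjusted p. Over all loci, 218 differed upward and 267 downward of 22598 against ABR8 at an unadjusted p, and 222 and 166 of 22541 against ABR4.

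From T1 drought to T2 drought, groups that the rule did not use either, most of the loci had lower values at T2 in both ABR lines, and few of the differences were called. In ABR8, 132 of 144 loci were lower (91.7%, against 52.1% of all loci), with a median log2 change of -0.54. In ABR4, 127 were lower (88.2%, against 51.9%), with a median of -0.62. The corresponding medians in the controls, from T1 to T2, were -0.63 and -0.67, though the T2 controls were used by the rule. Among the 76 loci alike in the T1 controls, 72 were lower in ABR8 and 67 in ABR4, with a median of -0.50 in each.

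In ABR4, 11 loci were called lower (7.64%, against 0.313% of all loci) and none higher (against 0.211%). The largest changes were those of Bradi3g27700, from 11.3 to 1.44 FPKM (log2 change -2.97 ± 0.66 (SE)), and Bradi2g31800, from 30.8 to 4.46 FPKM (-2.78 ± 0.51 (SE)). Bradi5g11240 fell from 15.6 to 2.86 FPKM, Bradi2g62067 from 14.4 to 2.17 and Bradi1g63080 from 77.8 to 21.1. The other 6 were Bradi2g22880, Bradi3g41500, Bradi4g16630, Bradi2g17390, Bradi4g24967 and Bradi4g36120, and 7 of the 11 were among the loci alike in the T1 controls.

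In ABR8, with control and drought exchanged as in the treatment field, 5 loci were called lower, from groups of which the rule used that at T2. By the sample titles, 4 loci were called lower (against 0.0631% of all loci) and none higher (against 0.00742%). They were Bradi1g41115 (19.5 to 4.09 FPKM), Bradi1g59690 (9.67 to 2.04), Bradi2g23750 (78.2 to 18.2) and Bradi2g50850 (19.2 to 4.83). All were 2.83-fold to 4.13-fold higher in the T1 control of ABR4 than in that of ABR8, and higher in ABR8 in T1 drought than in its T1 control. None of the 76 loci alike in the T1 controls was called.

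In KOZ1 the calls from T1 drought to T2 drought went both ways. There 36 loci were called lower (25%, against 5.2% of all loci tested) and 11 higher (7.64%, against 4.48%). Of the loci at 1 FPKM or more at T0, 8.6% were called lower and 6.21% higher, the latter close to the share of the 11. The median log2 change was -0.27, with 92 loci lower and 52 higher. When the groups were scaled to the same summed FPKM, which shifted the median of all loci by 0.28 in this comparison, 22 loci were called lower (against 2.70% of all loci under that scaling) and 19 higher (13.2%, against 13.7%), and the median of the 144 turned to 0.10, against 0.28 over all loci. Of the main calls, 22 of 36 and 11 of 11 were called under that scaling, and none changed direction.

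**Figure D2:**
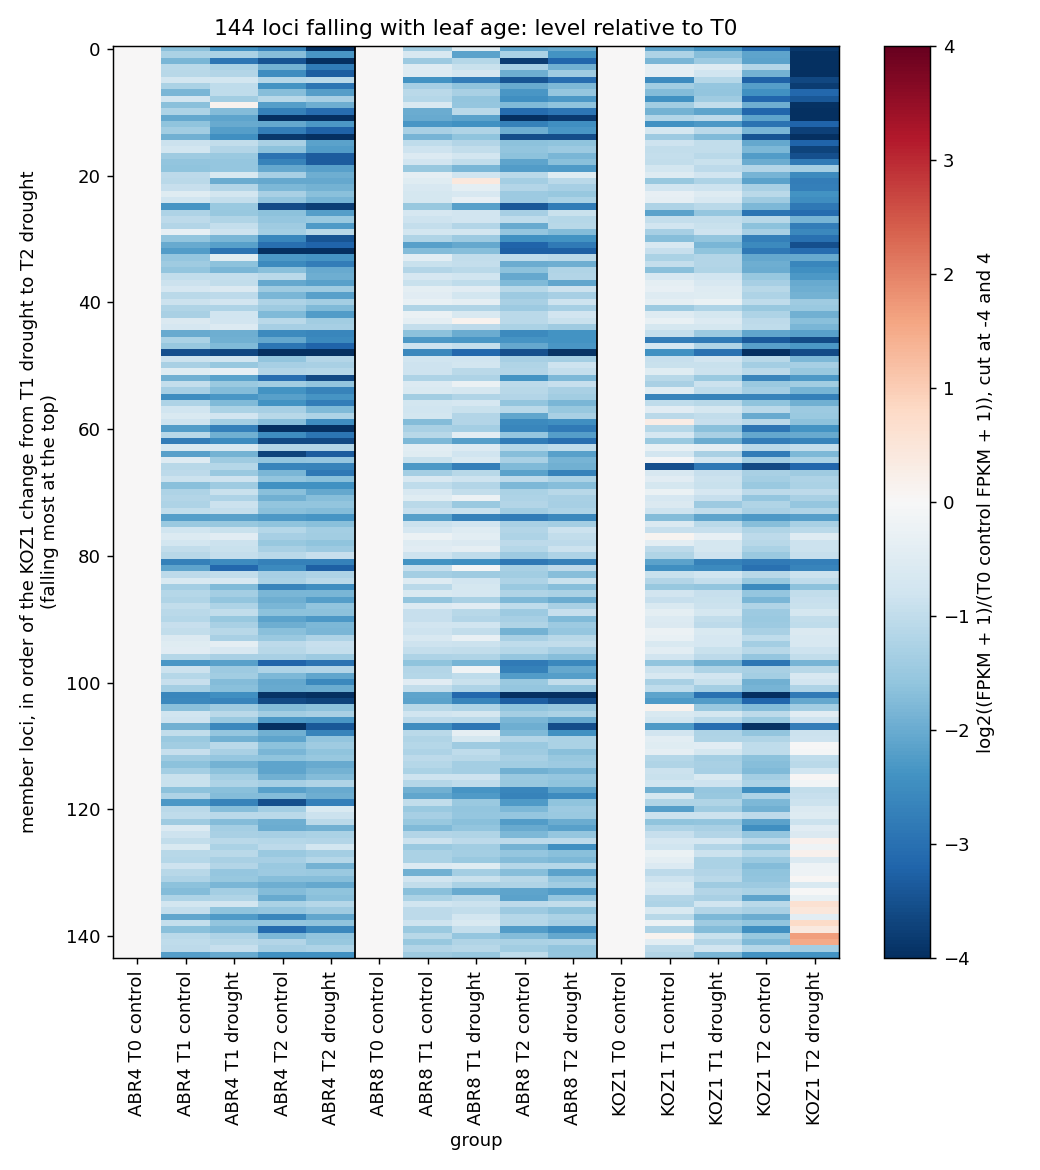
Levels of the 144 loci (rows) in the 15 groups (columns), as log2((FPKM + 1)/(T0 control FPKM + 1)) of the same genotype, with blue below and red above T0 and the scale cut at -4 and 4. Rows are ordered by the KOZ1 log2 change from T1 drought to T2 drought, which a locus at 0 FPKM in either group (in the last rows) does not have. The ABR columns are blue throughout with few exceptions, while the KOZ1 T2 drought column runs from dark blue at the top to the loci at or above T0, 10 of 144, in the lower rows.

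Several of the loci that fell most in KOZ1 stood lower in its T2 drought than in all the other 14 groups. Bradi4g36120 (chromosome 4, 41319368 to 41321130), which lies at a RefSeq pseudogene, was at 115 FPKM at T0, 87.5 in the T1 control, 80.7 in T1 drought, 50.7 in the T2 control and 3.5 in T2 drought in KOZ1. Its T2 drought value was 22.1 FPKM in ABR4 and 22.3 in ABR8. The change from T1 drought was -4.53 ± 0.56 (SE) on the log2 scale.

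Bradi5g11240 (chromosome 5, 14938210 to 14943166) was at 36.5 FPKM at T0, 28.4 in the T1 control, 20.5 in T1 drought, 9.02 in the T2 control and 0.936 in T2 drought in KOZ1, a log2 change of -4.45 ± 0.56 (SE) between the drought times. In T2 drought it was at 2.86 FPKM in ABR4 and 10.9 in ABR8, the latter above the T2 control of 7.23. Bradi1g41115 fell in KOZ1 from 56.5 to 2.12 FPKM, against 34.3 in the T2 control, and Bradi1g67120 from 196 to 28.8, against 109.9. The largest log2 change that was called was that of Bradi4g44496, -6.00 ± 1.68 (SE), at levels of 4.49 and 0.0701 FPKM.

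Some of these loci had been higher in T1 drought than in the T1 control. Bradi1g66360 was at 2.11 FPKM in the KOZ1 T1 control, 6.96 in T1 drought and 0.402 in T2 drought, and Bradi1g43851 at 1.49, 3.99 and 0.278. Of the 36 loci, 22 were lower in T1 drought than in the T1 control, and 14 were also called lower in T2 drought than in the T2 control. In ABR4, 35 of the 36 were lower in T2 drought than in T1 drought and 9 were called, and in ABR8 34 were lower and 2 were called. Their median log2 changes there were -1.28 and -0.79, against -2.15 in KOZ1, and -0.99 between the KOZ1 controls. The 36 loci were chosen by their KOZ1 drought values. This sets the KOZ1 median low and enters the counts against its controls, so that the steeper KOZ1 median is not a finding. Their median T0 level was 40.1 FPKM.

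None of the 11 loci called higher in KOZ1 was called in ABR4 or ABR8. Calls there were rare over all loci (0.211% and 0.00742% higher, 0.313% and 0.0631% lower), so this count does not set the 11 apart. The 10 largest changes in KOZ1 were all falls, so that the rising loci are named after their values were seen. Bradi4g23640 (chromosome 4, 28352572 to 28355085) was at 13.5 FPKM at T0, 9.93 in the T1 control, 5.44 in T1 drought, 3.23 in the T2 control and 40.5 in T2 drought in KOZ1. In T2 drought it was at 9 FPKM in ABR4 and 6.96 in ABR8, both below their T0 levels of 27.9 and 17.8. The KOZ1 change from T1 drought was 2.90 ± 0.43 (SE) on the log2 scale.

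Bradi1g34825, given jointly with Bradi1g34830 (chromosome 1, 30504147 to 30511284), was at 38.6 FPKM at T0, 42.9 in the T1 control, 20.4 in T1 drought, 12.9 in the T2 control and 125 in T2 drought in KOZ1, the highest of its 15 values. It rose by 2.62 ± 0.42 (SE) on the log2 scale, while ABR4 and ABR8 were at 10.8 and 8.52 FPKM in T2 drought. Bradi2g09145 (chromosome 2, 7444181 to 7444967), among the 15 most abundant, was at 105 FPKM at T0, 88.4 in the T1 control, 38.4 in T1 drought, 34.2 in the T2 control and 179.7 in T2 drought in KOZ1 (log2 change between the drought times 2.23 ± 0.37 (SE)). Each of these 3 loci stood below its KOZ1 T1 control in T1 drought and above it in T2 drought.

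Bradi2g43040 rose in KOZ1 from 2.4 to 13.7 FPKM, Bradi1g54800 from 5.57 to 19.4, and Bradi4g23290 from 15.5 to 33.6. The others were Bradi3g38090, Bradi5g16730, Bradi2g62400, Bradi2g14220 and Bradi4g31110, with log2 changes of 1.89, 1.53, 1.20, 1.06 and 1.01. In KOZ1, 10 of the 11 were lower in T1 drought than in the T1 control and 10 were lower in the T2 control than in the T1 control. In T2 drought 8 of the 11 stood at or above T0. The choice set their KOZ1 values low in T1 drought and high in T2 drought, which enters the counts that use them. In ABR8 all 11 were lower in T2 drought than in T1 drought, and in ABR4 8 were. Their median T0 level was 21.5 FPKM.

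**Figure D3:**
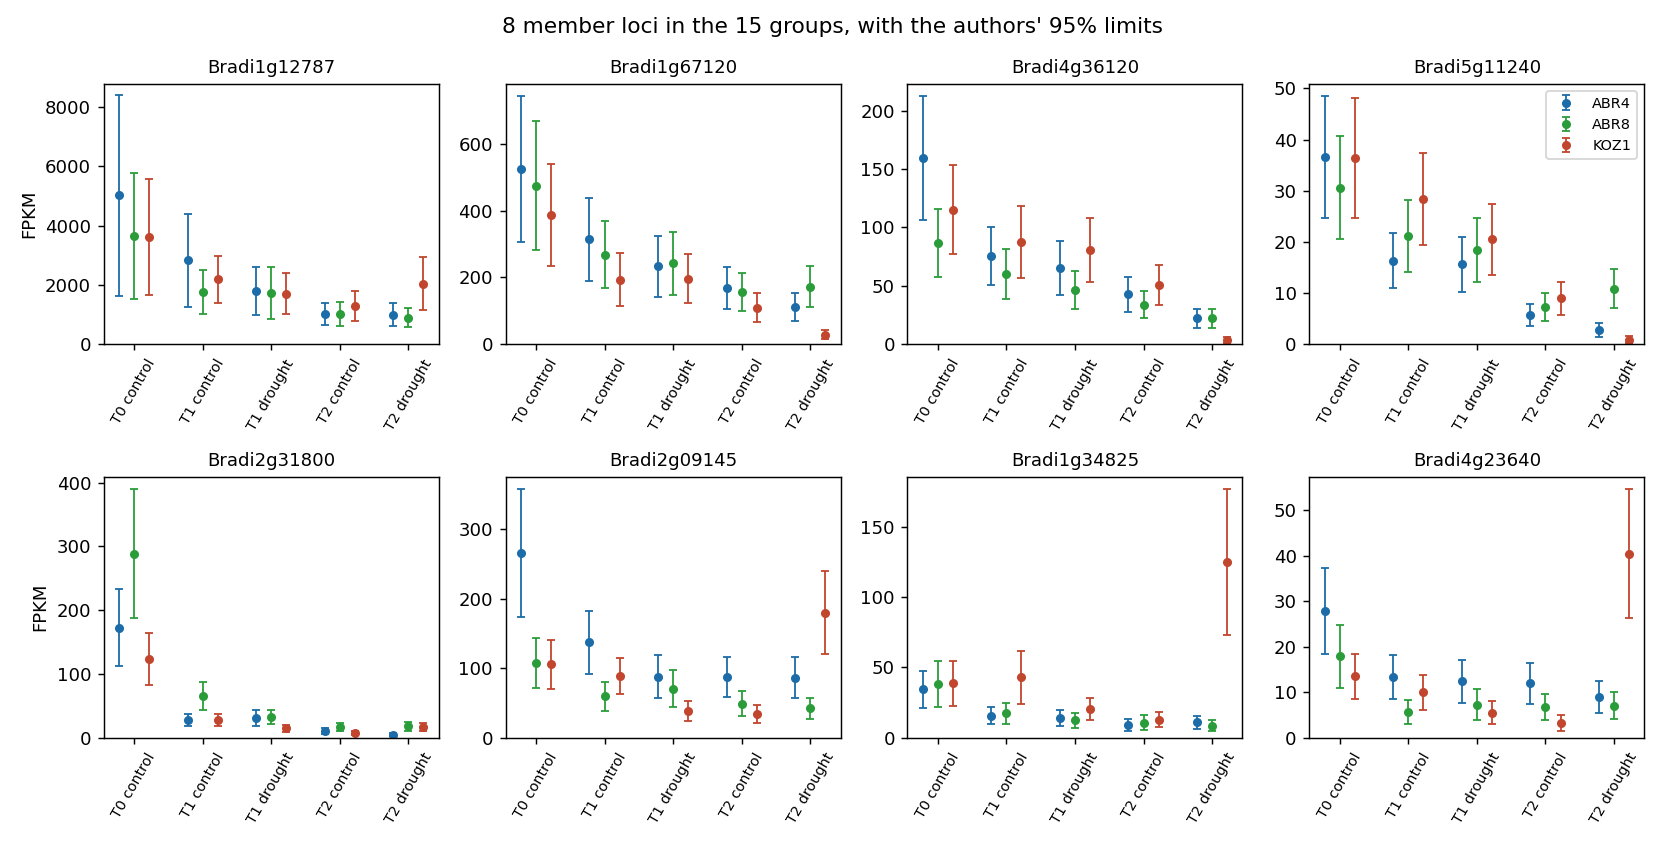
FPKM of 8 of the 144 loci in the 15 groups, in 3 colours for ABR4, ABR8 and KOZ1. Points are the authors' value of a group and bars run from its lower to its upper 95% limit, on linear axes that start at 0 and differ between panels. Bradi1g67120, Bradi4g36120 and Bradi5g11240 were lowest in KOZ1 T2 drought, and Bradi2g09145, Bradi1g34825 and Bradi4g23640 were higher there than in any other KOZ1 group.

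Whether KOZ1 changed otherwise than the ABR lines between the drought times was tested on the difference of the log2 changes, over all loci above 0 in the groups. Against ABR8, 9 of 142 loci changed more upward in KOZ1 (against 1.85% of all loci tested) and 7 more downward (4.93%, against 3.31%). Of the loci at 1 FPKM or more at T0, 2.16% were called upward and 4.86% downward, close to the share of the 7. Against ABR4, 6 changed more upward (against 0.639%) and 2 more downward (against 1.22%). With the groups scaled to the same sum, 23 were called upward and 3 downward against ABR8 (6.09% and 1.43% of all loci under that scaling), and 11 and 2 against ABR4 (1.41% and 0.532%). The difference was called against both lines for 6 loci. Upward these were Bradi4g23640, Bradi2g43040, Bradi1g34825, Bradi2g09145 and Bradi4g23290, and downward Bradi4g36120.

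For Bradi4g23640 the difference was 3.35 ± 0.59 (SE) on the log2 scale against ABR4 and 2.96 ± 0.63 (SE) against ABR8. For Bradi4g36120 it was -2.97 ± 0.68 (SE) and -3.47 ± 0.68 (SE). Bradi5g11240, Bradi1g67120 and Bradi1g20440 were called against ABR8 and not against ABR4, with differences from ABR8 of -3.69, -2.28 and -1.97, and the corresponding values against ABR4 were -2.00, -1.69 and -0.55. With the same sum the differences of Bradi1g67120 and Bradi1g20440 from ABR8 were -1.60 and -1.29 and were no longer called. Bradi2g31800 was called against ABR4 and not against ABR8, with a difference of 2.96 from ABR4. It was at 4.46 FPKM in ABR4 and 16.5 in KOZ1 in T2 drought. Among the 76 loci alike in the T1 controls, 7 differences were called against ABR8 (3 upward and 4 downward) and 2 against ABR4 (1 upward and 1 downward). The larger number of upward calls was thus not seen among these loci.

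**Figure D4:**
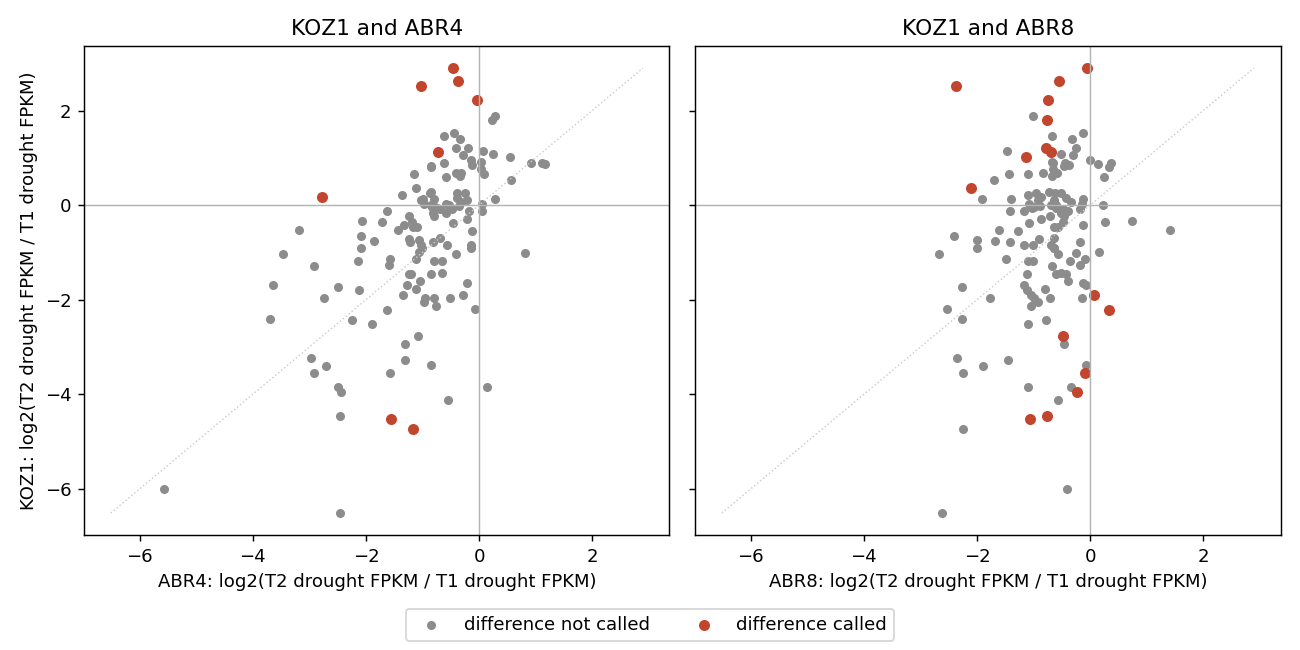
Log2 change in FPKM from T1 drought to T2 drought in KOZ1 (vertical) against ABR4 (left panel) and ABR8 (right panel), for the 142 loci above 0 in the groups shown. The dotted line marks equal change and red points are loci whose difference was called, 8 against ABR4 and 16 against ABR8. Most points lie left of 0, falling in the ABR lines, while KOZ1 values spread from below -6 to above 2.

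At T2 no locus was called in drought against the control of the same day in the ABR lines. In ABR4 87 of 143 tested loci were lower in drought, with a median log2 change of -0.06. In ABR8, taken by its sample titles, 70 of 144 were lower, with a median of 0.02. Over all loci 0.031% and 0.0229% were called lower and 0.0388% and 0.0153% higher, and 3 and 1 of the 144 passed an unadjusted p with 2-fold. Of all loci tested, 103 passed it higher and 142 lower of 25772 in ABR4, and 97 and 73 of 26189 in ABR8. In T2 drought 138 of the 144 loci in ABR4 and 127 in ABR8 were still at the limit of the rule or below it, relative to T0. No locus of either line was back at its T0 level.

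In KOZ1, 18 loci were called higher in T2 drought than in the T2 control (against 3.77% of all loci, and 5% of those at 1 FPKM or more at T0) and 14 lower (against 4.57% and 7.51%), and 87 of 143 were higher, with a median log2 change of 0.20. The T2 control was used by the rule, which chose it low. Among the 185 tested loci chosen in ABR4 and ABR8 alone, 21 were called higher (11.4%) and 19 lower (10.3%), with a median of 0.17. With the groups scaled to the same sum, which shifted the median of all loci by 0.33, 44 of 143 were called higher (30.8%, against 13.4% of all loci under that scaling) and 7 lower (4.90%, against 2.07%). In T2 drought 92 loci in KOZ1 were still at the limit of the rule relative to T0, and 10 were at or above T0.

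Among the loci called higher were all 11 that rose from T1 drought. Further ones were Bradi1g68340 (0.365 FPKM in the T2 control, 2.79 in T2 drought), Bradi1g10580 (2.92 and 14.6) and Bradi4g31820 (14.5 and 38.2). Other loci with steep falls stayed low in KOZ1: Bradi1g72390 was at 0.43 and 0.937 FPKM and Bradi3g39950 at 0.167 and 0.255. By T2 drought all of the 144 loci together made up 0.484% of the summed FPKM in ABR4, 0.375% in ABR8 and 0.959% in KOZ1. In KOZ1 the locus Bradi1g12787 alone gave 44.3% of the summed FPKM of the 144, from a change that was not called, and the total of that group was low. Without this locus the parts were 0.341%, 0.251% and 0.534%.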

How the data were processed

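RNA of 45 leaf samples in 15 groups was sequenced. After trimming (Trim Galore 0.4.1) the authors aligned reads to the v3.0 assembly by TopHat2 2.1.1 with Bowtie2 2.2.9 and ran Cufflinks and Cuffdiff 2.2.1, and the deposited values are FPKM per locus and group with 95% limits, normalized between groups, 1 value for the 3 libraries of a group. Depth per library is not in these values, and p-values rest on the authors' model of the spread between the plants of a group.

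The standard error was the distance from a value to its upper limit over the normal quantile. Groups were compared by a two-sided z-test on the log ratio (on the difference where a group was at 0), with Benjamini-Hochberg adjustment over all loci tested. Medians of changes use a pseudocount of 1, apart from those of the 36 loci called lower in KOZ1, which use none. Log2 changes of named loci from T0 to the T2 control use a pseudocount of 1, and their other log2 changes use none. In simulated data from the KOZ1 T1 control, 41% of 200 loci changed 4-fold were called among 25130, or 72.6% of those at 5 FPKM or more, with 0 false calls. The simulated noise was normal and had the standard errors that the test assumes. It therefore cannot show whether the authors' limits match the spread between plants. Coordinates count from 1.

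The loci to name were the 15 most abundant, the 15 with the largest mean fall, those called between drought times or in T1 drought (up to 10 per comparison), 3 on each side of the limit and those the study describes; not all are printed singly. Further names were chosen after their values were seen, as were the tests of differences between drought times. The members and lists were chosen with earlier results of these data known. Lists of genes by RefSeq description and promoter motifs were planned but not run, since the reference table used here has no descriptions or sequences. Python 3.11.15, numpy 2.4.6, pandas 2.3.3, scipy 1.17.1 and matplotlib 3.10.9 were used.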

Additional observations from a re-analysis of the deposited data

Results flagged for a closer look

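Between the drought times the changes of KOZ1 differed from those of ABR8 for 16 of the 142 loci tested (11.3%) and from those of ABR4 for 8 (5.63%), by the z-test of the difference itself. Over all loci tested 5.16% and 1.86% differed, and 7.02% and 2.51% of those at 1 FPKM or more at T0. The T1 drought values of ABR4 and ABR8, which lay closer to each other than at other times (median log2 ratio 0.98 against 2.33 in the T1 controls), and the low summed FPKM of KOZ1 in T2 drought (479128) enter these tests, and their part in the result was not tested further than by the alternatives given here.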

How the results depend on the processing

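No paired analysis was possible because the values were pooled by group, which also leaves no replicate to leave out. The 144 loci became 311 with a pseudocount of 0.1 and 49 with a limit of -1.5. The count was 113 with at least 5 FPKM at T0, 100 with limits that do not overlap, 150 under a common median, 169 with the same sum and 139 (127 of them shared) with ABR8 T2 drought in place of its T2 control.

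At an unadjusted p the called members were 5, 4 and 7 (ABR4, ABR8, KOZ1) in T1 drought against control, where 0 were called at the adjusted p, 3 in ABR4 and 1 in ABR8 in T2 drought against control, 44 and 28 in ABR4 and ABR8 between the drought times, and 93, 72 and 60 from T0 to the T1 control. From T0 to the T2 control they were 144, 142 and 142 (139, 142 and 142 lower) in the loci chosen in the other genotypes. Of all loci tested, 442 of 25913, 1188 of 26835 and 1103 of 26568 passed as lower there. For the differences of T1 drought responses the called members were 9 (ABR8) and 8 (ABR4), and for those between the drought times 40 and 23. Over all loci the latter were 1177 upward and 1614 downward of 22449 (ABR8), and 669 and 1125 of 22370 (ABR4). Between the drought times 310 loci passed higher and 484 lower of 26479 in ABR4, and 49 and 310 of 26961 in ABR8. From T0 to the T1 control 180 of 26010, 528 of 26868 and 911 of 26693 passed as lower (ABR4, ABR8, KOZ1). With the same sum 3 members were called lower in KOZ1 at T1, while of 51 called in KOZ1 at T2 44 were higher and 7 lower, and of 26 and 13 called differences between the drought times 23 and 11 were upward. With loci chosen in the other 2 genotypes, tried after seeing the data, 3 were called in ABR4 at T2.

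The 76 loci alike in the T1 controls gave 7 calls in ABR4, 0 in ABR8 and 25 in KOZ1 between the drought times, from fewer loci. They gave 7 and 2 differences, of which 3 and 1 were upward. With ABR8 control and drought exchanged, 10 differences against ABR8 were called, 7 upward and 3 downward. Over the drought comparisons 27 calls at 24 loci were lost with the same sum and none reversed.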
